A study of Mus musculus with 8 samples.

Results

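The 8 genes described here, Lhx1, Six3, Six6, Zfhx3, Zfhx4, Vax1, Tbx3 and Nkx2-2, encode developmental transcription factors of the hypothalamus. They were taken by symbol from the deposited tables of the suprachiasmatic nucleus (SCN), where they made up 8 of 20741 genes. The same symbols gave 8 of 15290 rows of the opposite-strand gene table, 35 of 176269 introns and 51 of 229190 splice junctions. All rows had at least 1 read. The list was chosen by name and not by how the genes behaved in time, although earlier results of these data were known when it was drawn up.

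C57/BL6 mice were kept in 12 h of light and 12 h of dark for 3 weeks and then moved to constant darkness, which every library shares. SCN RNA was collected every 6 h over 2 days, and equal amounts from 3 mice were pooled at each time, so that a library is a pool and not a mouse. The 8 libraries fell on 4 circadian times (CT) with 2 libraries each, 24 h apart. In the subjective day these were CT4 and CT10, and in the subjective night CT16 and CT22. The earlier library of each time is called replicate 1 and the later one replicate 2. The p-values do not measure the spread between mice. They measure the spread between such pools and, in fits without a 12-h term, what a 24-h cosine leaves between the 4 times. The labels place the start of collection at CT18, whereas the earliest library carries CT22 in its title.

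The SCN is the hypothalamic nucleus that sets the daily rhythm of the body. In the embryo its neurons arise in the anterior hypothalamus, where homeodomain proteins, which bind AT-rich DNA through a helical domain, mark out the territory and steer the neurons to their type. Several of these factors stay on in the adult nucleus: the LIM-homeodomain protein LHX1 maintains neuropeptide genes through which SCN neurons keep each other in time, SIX3 and SIX6 are needed to form the eye and the SCN, and a missense allele of ZFHX3 shortens the circadian period in mice. VAX1 acts in the ventral forebrain and the optic nerve, TBX3 in arcuate neurons, and NKX2-2 in the ventral neural tube and in oligodendrocyte differentiation.

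The promoters of the factors are shown first so that their sequences can be set side by side. Their part in the levels below was not tested. RefSeq promoter windows (build GRCm38.p6, 250 bases before to 50 bases after the start of transcription) were matched for 6 genes: Lhx1, Six3, Six6, Vax1, Zfhx3 and Nkx2-2. No window was matched for Zfhx4 and Tbx3. Both strands were searched for the E-box CACGTG bound by clock activators, the cAMP response element TGACGTCA, the D-box TTATGTAA, the ROR half-site AGGTCA, the homeodomain core TAATTA and the T-box half-site AGGTGTGA. The CCAAT box (CCAAT) was added after the sequences had been seen. Below are the 250 bases before the start, 5′ to 3′ on the strand of the gene, with every match to these motifs in capitals, for the 3 genes with the lowest p in the rhythm test and for the 1 gene with an E-box.
Lhx1, chr11:84525535-84525784, minus strand: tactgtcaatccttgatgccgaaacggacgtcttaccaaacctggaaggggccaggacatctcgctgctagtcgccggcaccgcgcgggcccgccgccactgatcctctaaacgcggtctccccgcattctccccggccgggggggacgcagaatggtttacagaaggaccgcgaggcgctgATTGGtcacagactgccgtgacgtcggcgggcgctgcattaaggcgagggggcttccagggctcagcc
Six6, chr12:72939632-72939881, plus strand: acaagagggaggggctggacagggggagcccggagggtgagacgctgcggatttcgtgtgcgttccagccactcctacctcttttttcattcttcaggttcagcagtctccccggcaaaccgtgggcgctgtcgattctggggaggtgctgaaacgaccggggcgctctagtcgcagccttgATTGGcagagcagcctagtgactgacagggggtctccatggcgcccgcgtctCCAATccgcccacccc
Zfhx3, chr8:108714394-108714643, plus strand: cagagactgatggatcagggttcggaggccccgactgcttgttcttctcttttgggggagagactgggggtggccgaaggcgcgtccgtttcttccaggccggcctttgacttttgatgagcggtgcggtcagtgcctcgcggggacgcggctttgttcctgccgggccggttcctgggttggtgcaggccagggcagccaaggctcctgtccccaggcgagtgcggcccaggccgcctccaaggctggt
Nkx2-2, chr2:147186403-147186652, minus strand: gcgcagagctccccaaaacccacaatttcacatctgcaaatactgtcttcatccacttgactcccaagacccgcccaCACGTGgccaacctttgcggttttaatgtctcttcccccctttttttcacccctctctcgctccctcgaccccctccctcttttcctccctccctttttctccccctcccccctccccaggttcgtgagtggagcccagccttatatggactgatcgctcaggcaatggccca

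An E-box was found in 1 of the 6 windows, that of Nkx2-2, where its first base lay 173 bases before the start. Of all 32851 windows of the table, 7.15% held an E-box. The other 5 motifs of the search list were found in none of the 6 windows, against 1.79% of all windows for the cAMP response element, 0.938% for the D-box, 16.3% for the ROR half-site, 5.29% for the homeodomain core and 1.28% for the T-box half-site. A CCAAT box on either strand was present in 4 of the 6, Lhx1, Six3, Six6 and Vax1, and in 37.4% of all windows. In Lhx1 and in Six6 alike, a reverse CCAAT box (ATTGG) began 68 bases before the start. Six6 held a further box 16 bases before the start, Six3 held 3 and Vax1 held 2. No motif overlapped another. The windows were read as letters only, and a missing match says only that these letters are not in the window. The G and C content of the windows ran from 47.7% in Vax1 to 67.3% in Zfhx3, beside a median of 52.7% over all windows.

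Each library held 11123610 to 11131890 reads on genes, a narrow range that leaves depth nearly equal. Levels are given as CPM, the read count of a gene scaled to a common library size with the TMM factors of edgeR, with the SD over libraries. The 6 SCN neuron markers Avp, Vip, Nms, Grp, Prok2 and Vipr2 had a summed level of 316 to 593 CPM per library. By comparison, 5 markers of magnocellular and paraventricular neurons summed to 358 to 522 CPM, and 5 of thalamic neurons to 281 to 365. These sums alone do not tell SCN tissue from other brain tissue. Other cells were present in all libraries as well: 12 oligodendrocyte markers summed to 5112 to 15983 CPM, with the lowest sum in CT4 replicate 1, and 6 arcuate markers to 27.3 to 103 CPM, with the highest in CT10 replicate 1. In tissue that mixes cell types, fewer cells of a type and less RNA per cell cannot be told apart.

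Compared per kilobase of listed exon, Six3 stood highest and Tbx3 lowest. Over the 8 libraries the level was 15.7 ± 2.99 CPM per kb in Six3 (SD, n = 8), 12.2 ± 3.80 in Six6, 11.7 ± 2.25 in Vax1, 9.22 ± 4.06 in Lhx1, 8.10 ± 1.49 in Zfhx3 and 5.17 ± 0.78 in Zfhx4. Nkx2-2 followed at 1.67 ± 0.57 CPM per kb and Tbx3 at 0.48 ± 0.29. The ranges of neighbours in this order overlapped in each pair except Zfhx4 and Nkx2-2, whose closest libraries were 3.73 and 2.49 CPM per kb. Six3 exceeded Six6 in 8 of 8 libraries, while Six6 exceeded Vax1 in 6, Vax1 exceeded Lhx1 in 6 and Lhx1 exceeded Zfhx3 in 5. These values divide the reads of the gene row by the whole listed exon length, and the place of the reads within the genes differed (below). The order of Vax1 and Lhx1 depended on this choice. By exon reads alone, summed over the libraries, Lhx1 stood at 906 reads per kb and Vax1 at 806. A group of 6 homeobox genes was therefore read at 5.17 to 15.7 CPM per kb, and Nkx2-2 and Tbx3 were read much less.

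**Figure D1:**
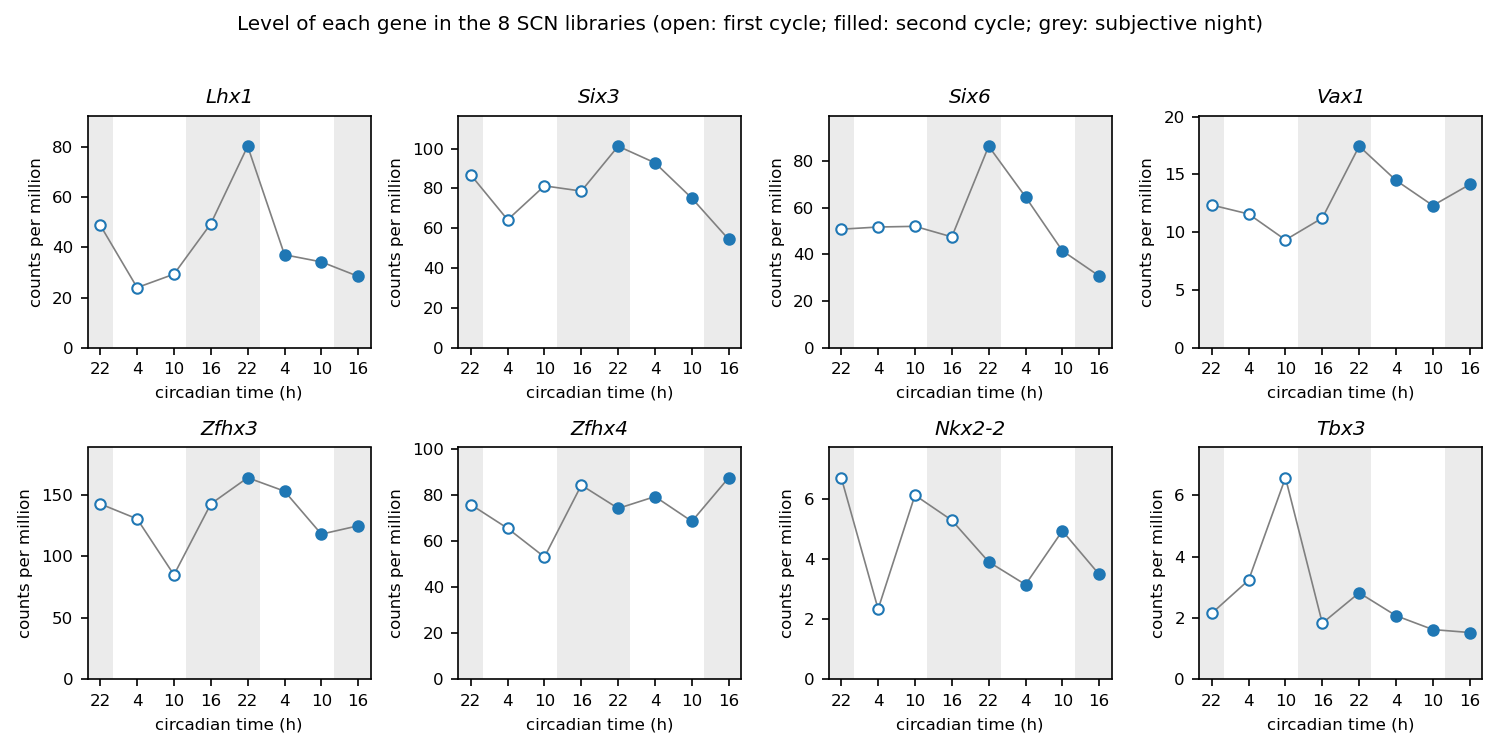
Level of each of the 8 genes in CPM (vertical axis, from 0, scaled per gene) in the 8 libraries in order of collection, labelled by circadian time in hours; open points are the first cycle, filled points the second, and grey marks the subjective night. Lhx1, Six3, Six6, Vax1 and Zfhx3 have their highest point at CT22 of the second cycle, and Tbx3 has 1 high point at CT10 of the first.

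None of the 8 genes followed a 24-h rhythm after adjustment for all genes. In the 24-h test (edgeR quasi-likelihood, a cosine of free phase, Benjamini-Hochberg adjusted p under 0.05), 0 of 8 passed, against 0.112% of the 15217 genes tested, or 17 genes. At an unadjusted p under 0.05, 3 of the 8 stood out, Lhx1, Zfhx3 and Six6, against 8.6% of all genes. DESeq2 also called 0 of the 8 and gave the same number, 3, at an unadjusted p under 0.05. When genes with few reads were left in the fit, however, Lhx1, Six6 and Zfhx3 passed (adjusted p = 6.62e-08, 0.000463 and 0.00847 by edgeR). That fit called 362 of 20741 genes, against 17 of 15217 with the filter. The result for these 3 genes thus differed with the low-count filter, and the values below are from the filtered fit. When 1 library was left out, fewer of the 8 had an unadjusted p under 0.05 without CT22 replicate 2 or CT10 replicate 1. More had one without either library of CT4. The number over all genes moved as well, and was lowest without either library of CT10 and highest without CT16 replicate 1.

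Lhx1 had the largest ratio of peak to trough among the genes with more than 10 CPM. Lhx1 (ENSMUSG00000018698, mm9 chromosome 11, 84331284-84339064, minus strand) was read at 48.9 CPM in replicate 1 and 80.4 in replicate 2 of CT22, at 24 and 37.1 at CT4, at 29.3 and 34.2 at CT10, and at 49.5 and 28.4 at CT16. Both CT22 libraries lay above both libraries of CT4 and of CT10, while the CT16 libraries lay apart from each other, the earlier beside CT22 and the later beside the day. Its mean was 64.6 ± 22.3 CPM at CT22 (SD, n = 2) and 30.5 ± 9.27 at CT4, a ratio of 2.12. The cosine fit peaked at CT20.8 with a log2 peak-to-trough ratio of 1.10 ± 0.30 (SE, edgeR adjusted p = 0.385, unadjusted 0.00533), in place 204 of 15217 by p. Without CT22 replicate 2 the log2 ratio was 0.66 (adjusted p = 0.677). A ratio of this kind cannot fall below 0 on the log2 scale, and its median over all genes tested was 0.29.

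Six3 and Six6 were both lowest in CT16 replicate 2. Six6 (ENSMUSG00000021099, chromosome 12, 74040864-74046213, plus strand) was read at 50.7 and 86.3 CPM at CT22 in replicates 1 and 2, at 51.7 and 64.6 at CT4, at 52 and 41.5 at CT10, and at 47.5 and 30.7 at CT16. In the first cycle its values lay between 47.5 and 52 CPM, and in the second cycle each was below that of 6 h before, from CT22 to CT16. The fit peaked at CT1.04 with a log2 peak-to-trough ratio of 0.80 ± 0.25 (SE, edgeR adjusted p = 0.496, unadjusted 0.0188). Six3 (ENSMUSG00000038805, chromosome 17, 86012938-86031570, plus strand) was read at 86.8 and 101 CPM at CT22, at 64.2 and 92.9 at CT4, at 81.3 and 75.1 at CT10, and at 78.7 and 54.4 at CT16. The highest Six3 library was CT22 replicate 2, as it was for Six6. For Six3 the log2 ratio was 0.36 ± 0.20 (SE) with a fitted peak at CT0.77 (edgeR adjusted p = 0.746), and it was 0.60 without CT4 replicate 1. The difference in rhythm between Six3 and Six6 was not tested.

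Vax1 (ENSMUSG00000006270, chromosome 19, 59240619-59245760, minus strand) was read at 12.4 and 17.4 CPM at CT22, at 11.6 and 14.5 at CT4, at 9.33 and 12.3 at CT10, and at 11.2 and 14.1 at CT16. Within each cycle the order was the same at the ends, with CT22 highest and CT10 lowest. The later library exceeded the earlier at all 4 times. The fitted log2 ratio of peak to trough was 0.46 ± 0.25 (SE, edgeR adjusted p = 0.731), and 0.26 without CT22 replicate 2.

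The zinc-finger homeobox genes Zfhx3 and Zfhx4, which encode very large proteins with several homeodomains, both had their lowest level at CT10 in each cycle. Zfhx3 (ENSMUSG00000038872, chromosome 8, 111238476-111486145, plus strand) was read at 143 and 164 CPM at CT22, at 131 and 153 at CT4, at 84.9 and 118 at CT10, and at 143 and 125 at CT16. Both CT10 libraries lay below the other 6. The mean was 153 ± 15.1 CPM at CT22 (SD, n = 2) and 102 ± 23.5 at CT10, a ratio of 1.51. The Zfhx3 fit peaked at CT22.5 with a log2 ratio of 0.60 ± 0.16 (SE, edgeR adjusted p = 0.408, unadjusted 0.00714). Without CT10 replicate 1 the log2 ratio was 0.38 (adjusted p = 0.851). Zfhx4 (ENSMUSG00000025255, chromosome 3, 5218517-5416272, plus strand) was read at 75.7 and 74.1 CPM at CT22, at 65.4 and 79.2 at CT4, at 53.0 and 68.4 at CT10, and at 84.1 and 87.4 at CT16. Here CT16 was highest in both cycles, and its 2 libraries lay above the other 6. For Zfhx4 the fit peaked at CT19.4 with a log2 ratio of 0.39 ± 0.16 (SE, edgeR adjusted p = 0.622), and 0.25 without CT10 replicate 1.

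Nkx2-2 and Tbx3 rested on few reads. Nkx2-2 (ENSMUSG00000027434, chromosome 2, 147003243-147020008, minus strand) had 26 to 75 reads per library. That is 6.71 and 3.91 CPM at CT22, 2.33 and 3.15 at CT4, 6.13 and 4.94 at CT10, and 5.29 and 3.49 at CT16. CT4 held the lowest library of each cycle. The log2 ratio of peak to trough was 0.64 ± 0.45 (SE, edgeR adjusted p = 0.825). It was 0.20 without CT4 replicate 1 and 1.13 without CT16 replicate 2. Tbx3 (ENSMUSG00000018604, chromosome 5, 120120505-120134942, plus strand) had 74 reads in CT10 replicate 1 and 17 to 36 in the other 7 libraries. Its levels were 2.15 and 2.82 CPM at CT22, 3.23 and 2.07 at CT4, 6.57 and 1.62 at CT10, and 1.83 and 1.52 at CT16. The replicates of CT10 thus differed 4.07-fold, more than any 2 circadian times differed in their means, where the ratio of CT10 to CT16 was 2.45. The log2 peak-to-trough ratio of Tbx3 was 0.98 ± 0.62 (SE, edgeR adjusted p = 0.773).

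Tbx3 shared its highest library, and Nkx2-2 its lowest, with marker genes of other cells. Elsewhere gene and markers ran together in some libraries and apart in others. In CT10 replicate 1, where Tbx3 was highest, the arcuate gene Pomc, the precursor of melanocortin peptides, stood at 51.7 CPM, against 1.17 to 11.5 elsewhere. Npy was at 17.1 CPM there and at 2.36 to 5.19 elsewhere, and Agrp at 3.11 and 0 to 0.363. All 3 encode feeding peptides of arcuate neurons. Of the 6 arcuate markers none was at 0 in all libraries, and Th and Kiss1 did not have their highest level in this library. Nkx2-2 was lowest in CT4 replicate 1, as was the summed level of the oligodendrocyte markers (5112 CPM, against 8211 to 15983 elsewhere), with Mbp of myelin at 1496 CPM. In CT10 replicate 1 Nkx2-2 was at 6.13 CPM beside a sum of 15325, and in CT4 replicate 2 at 3.15 beside 8497. CT16 replicate 2, however, had the highest oligodendrocyte sum and 3.49 CPM of Nkx2-2. CT22 replicate 1, with the most Nkx2-2 at 6.71 CPM, had a middling sum of 10406. With the oligodendrocyte score as a term in the fit, the log2 peak-to-trough ratio of Nkx2-2 was 0.42. Outside CT10 replicate 1, Tbx3 was at 2.82 CPM where the arcuate sum was 29.2 (CT22 replicate 2). It was at 1.52 where the sum was 38.6 (CT16 replicate 2). Tbx3 was at 3.23 CPM where the sum was 40.6 (CT4 replicate 1), and at 1.83 where the sum was lowest, 27.3 (CT16 replicate 1). The part of arcuate cells in the Tbx3 values was not tested. Without CT10 replicate 1 the dusk-dawn log2 change of Tbx3 was -0.63 in place of 0.07. Its day-night change was then 0.047 in place of 0.69.

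**Figure D2:**
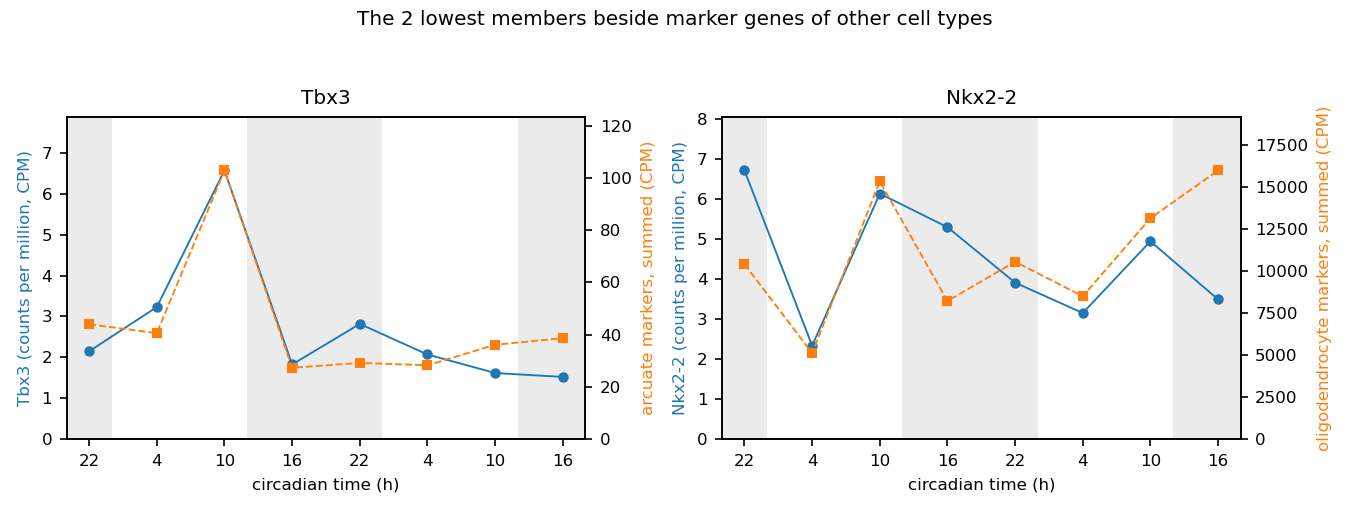
Levels of Tbx3 (left panel) and Nkx2-2 (right panel) in CPM (circles, left axes) beside the summed level of 6 arcuate and 12 oligodendrocyte markers (squares, right axes) in the 8 libraries in order of collection. Tbx3 and the arcuate sum both have their highest point, 6.57 and 103 CPM, at CT10 of the first cycle, and Nkx2-2 and the oligodendrocyte sum both have their lowest at CT4 of the first cycle.

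The subjective day was compared with the subjective night, and dusk (CT10 and CT16) with dawn (CT22 and CT4). No gene of the 8 passed either test, against 0.105% of all genes for day-night and 0.0197% for dusk-dawn. At an unadjusted p under 0.05, there were 3 of 8 for day-night (7.72% of all genes) and 2 of 8 for dusk-dawn (7.84%). The day-night number of the 8 was lower without CT4, CT10 or CT16 replicate 1 and without CT16 or CT22 replicate 2. Their dusk-dawn number was higher without CT4 or CT10 replicate 1. The numbers over all genes moved between these fits as well. For day minus night the log2 change was -0.69 ± 0.21 in Lhx1 (SE, edgeR adjusted p = 0.357), -0.27 ± 0.11 in Zfhx4 (adjusted p = 0.583) and -0.25 ± 0.11 in Zfhx3 (adjusted p = 0.614). It was -0.45 in Lhx1 without CT22 replicate 2, and without CT10 replicate 1 it was -0.16 in Zfhx4 and -0.14 in Zfhx3. For dusk minus dawn it was -0.56 ± 0.18 in Six6 (SE, edgeR adjusted p = 0.452) and -0.34 ± 0.11 in Zfhx3 (adjusted p = 0.503), and -0.34 in Six6 without CT22 replicate 2. Tbx3 had a day-night change of 0.69 ± 0.44, which was 0.047 without CT10 replicate 1. The 4 day libraries and the 4 night libraries overlapped in all 8 genes, as did those of dusk and dawn. Over all genes tested, 4.65% and 3.61% did not overlap. Without the low-count filter, 1 of the 8 passed for day-night (Lhx1, adjusted p = 9.31e-06 by edgeR) and 2 for dusk-dawn (Six6, 0.000155, and Zfhx3, 0.0331). Of 20741 genes, that fit called 137 for day-night and 239 for dusk-dawn, against 16 and 3 of 15217 with the filter.

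Fitted changes were below 0 in 6 of 8 genes for day-night and in 6 of 8 for dusk-dawn. The median change was -0.23 for day-night and -0.25 for dusk-dawn, against -0.01 and 0.01 over all genes, of which 52% and 48.6% were below 0. Over the fits that left out 1 library, 5 to 7 genes were below 0 for day-night, with medians from -0.29 to -0.11 (the latter without CT4 replicate 1), and 6 of 8 for dusk-dawn, with medians from -0.34 to -0.11. The dusk-dawn median was -0.13 without CT22 replicate 2 and -0.11 without CT16 replicate 2. The day-night median was -0.13 without CT10 replicate 1.

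Cell type markers lay along the dusk-dawn comparison too. All 12 oligodendrocyte markers were above 0 (median 0.56), as were 6 of 7 meningeal markers (median 0.53), and all 6 SCN neuron markers were below 0 (median -0.60). None of these markers was called for dusk-dawn. With the oligodendrocyte score as a term, the dusk-dawn median of the 8 factors was -0.31, with 6 of 8 below 0, and the change was -0.65 in Six6 and -0.26 in Zfhx3. The part of SCN neurons, or of a rhythm in their markers, in the dusk-dawn changes was not tested.

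Lhx1 and Tbx3 lay outside the middle 95% of all genes for day-night, which ran from -0.62 to 0.62, and the other 6 lay within it. Both places rested on single libraries. Against the same band, Lhx1 lay inside at -0.45 without CT22 replicate 2, at -0.50 without CT4 replicate 1 and at -0.61 without CT16 replicate 1. Tbx3 lay inside at 0.047 without CT10 replicate 1, at 0.51 without CT16 replicate 2 and at 0.60 without CT16 replicate 1.

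**Figure D3:**
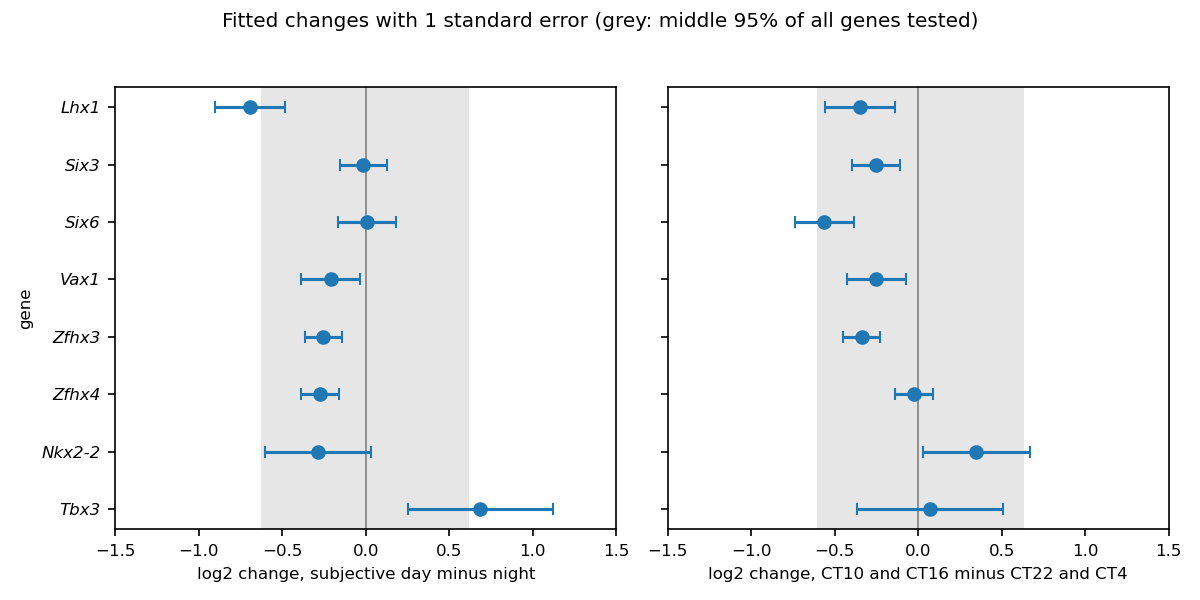
Fitted log2 change of each gene (points) with 1 standard error, for the subjective day minus night (left panel) and for CT10 and CT16 minus CT22 and CT4 (right panel); grey marks the middle 95% of the 15217 genes tested. Lhx1 at -0.69 lies left of the grey band in the left panel, and Six6 at -0.56 is the lowest in the right panel, inside the band.

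A term with a 12-h period, in which CT4 and CT16 are set against CT10 and CT22, was called in 0 of 8 genes and in 0% of all. With edgeR, 1137 genes (7.47%) had an unadjusted p under 0.05, and 2 of the 8 did, Nkx2-2 (log2 change -0.64 ± 0.28, SE) and Zfhx4 (0.22 ± 0.10). Without CT22 replicate 1 the change was -0.41 in Nkx2-2, and without CT10 replicate 1 it was 0.14 in Zfhx4. With 1 library left out, the number of factors at an unadjusted p under 0.05 was lowest without CT10 replicate 1 or CT16 replicate 2. It was highest without CT16 replicate 1 or CT10 replicate 2, and the number over all genes moved as well. With the oligodendrocyte score as a term, 0 factors were so placed, beside 1191 of 15217 genes. DESeq2 called 19 genes for this term, none of them among the 8. The second cycle against the first was likewise called in 0 of 8 genes and in 0% of all by edgeR, with 543 genes (3.57%) at an unadjusted p under 0.05. Among them was Vax1, with a log2 change of 0.39 ± 0.15 (SE, adjusted p = 0.999), the only factor so placed. The number of factors so placed was lower without CT22 or CT10 replicate 1. It was higher without CT4 or CT16 replicate 1 or without CT22 or CT16 replicate 2, and the number over all genes moved as well. In the fit that also held the oligodendrocyte score, 4 factors were so placed, beside 705 of 15217 genes. DESeq2 called 0 genes here.

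The place of the extremes was compared between cycles without a test. In 3 of the 8 genes, Zfhx3, Zfhx4 and Vax1, the same circadian times were highest and lowest in both cycles, against 11.2% of all genes. The same time was lowest in 6 of 8 (31.3% of all genes) and highest in 4 of 8 (28.9%). In 5 of 8, Lhx1, Six3, Vax1, Zfhx3 and Zfhx4, both CT22 libraries lay above both CT10 libraries, as in 22% of all genes. These counts were chosen after the values were seen.

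For 5 of the 8 genes, Lhx1, Six3, Six6, Vax1 and Zfhx3, the highest library was CT22 replicate 2, which was the highest for 12.3% of all genes. The SCN neuron markers had their highest sum in the same library, 593 CPM against 316 to 417 elsewhere. The neuropeptide gene Vip was at 375 CPM there and at 189 to 266 elsewhere, and its receptor gene Vipr2 at 144 and 41.3 to 83.4. Of the 6 markers, Avp, Grp and Prok2 were not highest in it. Some of these markers may vary with time themselves: 5 of the 6 had an unadjusted p under 0.05 in the edgeR 24-h test (8.6% of all genes). Only Vipr2 of them was called. The exception was Vip, the most-read of the 6 (unadjusted p = 0.331 in that test). A rhythm of the markers and the share of SCN neurons cannot be told apart in their sum. The part of that share in these levels was not tested.

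Introns were summed per gene. Their reads can come from unspliced RNA or, where a listed exon overlaps the intron, from that exon. Of the 8 genes, 6 had enough intron reads to be tested, all but Six6 and Tbx3, and 0 of 6 were called, against 0.255% of 13725 genes. At an unadjusted p under 0.05 there were 2 of 6, Lhx1 and Zfhx3, against 10.4% of all. That number was lower without CT22, CT4 or CT16 replicate 1 and without CT22 or CT4 replicate 2, and the same without any of the other 3. The number over all genes moved between these fits as well. Lhx1 introns held 39 and 51 reads at CT22, 10 and 10 at CT4, 18 and 31 at CT10, and 44 and 15 at CT16. As in the gene counts, CT4 was low, CT22 was high and the CT16 libraries disagreed. The intron fit peaked at CT18.4 with a log2 ratio of 1.66 ± 0.57 (SE, edgeR adjusted p = 0.412). Zfhx3 introns held 39 and 49 reads at CT22, 63 and 37 at CT4, 32 and 32 at CT10, and 11 and 26 at CT16. They were lowest at CT16, where the gene counts were not. Their fit peaked at CT2.70 with a log2 ratio of 1.46 ± 0.43 (SE, edgeR adjusted p = 0.291), while the gene counts peaked at CT22.5, a difference that was not tested. The intron of Zfhx3 from 111239231 to 111316101 had an adjusted p of 0.0393 with a peak at 4 h in the authors' deposited table, but a q-value of 1.

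Six3 introns need care because the listed intron from 86023227 to 86026982, with 450 to 885 reads per library, largely overlaps a listed exon of the same gene. The same is true in part of 2 of the 3 listed introns of Nkx2-2. With such introns left out, Nkx2-2 had too few reads to be tested. All Six3 introns together gave a log2 peak-to-trough ratio of 0.25 ± 0.19 (SE, edgeR adjusted p = 0.819), and 0.16 to 0.43 when 1 library was left out, with the lowest without CT22 replicate 2 and the highest without CT4 replicate 1. The remaining Six3 intron free of exons held 107 and 85 reads at CT22, 45 and 78 at CT4, 49 and 78 at CT10, and 55 and 28 at CT16. Its fit peaked at CT0.60 ± 1.82 h (SE) with a log2 ratio of 0.82 ± 0.39 (SE, edgeR adjusted p = 0.652, a set of introns chosen after the data were seen). The fit of the Six3 gene counts peaked at CT0.77 ± 2.15 h, and neither was called. Vax1 introns had 58 to 97 reads per library and a log2 ratio of 0.08 ± 0.31. Relative to its exons, read density in exon-free introns was highest in Vax1, at 25.7% of the exon density, and was 24.7% in Nkx2-2, 21.5% in Six3, 16.3% in Tbx3, 11.8% in Lhx1 and 6.23% in Six6. It was 0.18% in Zfhx3 and 0.12% in Zfhx4, whose introns span 230411 and 173159 bases. Intron and exon tables were brought to equal depth separately, so these percentages rank genes and are not shares of RNA.

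Splice junctions were thinly covered. Of the 51 junctions of the 8 genes, 6 were tested, 2 each of Lhx1 and Vax1 and 1 each of Six3 and Six6. None was called for the 24-h rhythm, against 0.0179% of 78212 junctions, and 0 of 6 had an unadjusted p under 0.05 (5% of all). The Lhx1 junction over 84333952-84335192 held 13 and 19 reads at CT22, 10 and 9 at CT4, 8 and 1 at CT10, and 14 and 1 at CT16. The later CT10 and CT16 libraries were the low ones. The Six6 junction over 74041615-74042613 held 5 and 10 reads at CT22, 3 and 22 at CT4, 5 and 18 at CT10, and 5 and 3 at CT16. It followed no order seen in the Six6 gene counts. In the authors' deposited table the Lhx1 junction over 84335791-84337507 had an adjusted p of 0.0393 with a peak at 22 h, and a q-value of 1. That table gave no gene of the 8 a q-value below 1, and its lowest adjusted p among their sense rows was 0.125 for Zfhx3.

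Reads of the zinc-finger homeobox genes were piled up at the 3′ end. In Zfhx3 the last exon, 111479282-111486161, held 95.2% of exon reads over 42.0% of the exon length, and from 92.7% to 97.0% in single libraries. In Zfhx4 the last exon, 5411682-5416272, held 97.0% of exon reads over 32.3% of the length. The density was 1606 reads per kb in the last exon of Zfhx3 and 59.1 in its other exons, summed over the libraries, and 1356 and 19.9 in Zfhx4. All 8 listed Zfhx3 junctions together had 36 reads and all 5 of Zfhx4 had 17. Over 10365 genes with at least 3 exons and 800 exon reads, the most-read exon held a median of 49.7% of reads, and over the 819 of these with at least 10000 bases of exon, 68.4%, with quartiles of 41.1% and 89.3%. Both genes lay above the upper quartile of the long genes. The most-read exon was the last listed in Lhx1 (67.4% of reads), Six3 (78.9%), Six6 (91.3%) and Tbx3 (57.3%) as well, and the next to last in Nkx2-2 (79.9%) and Vax1 (41.0%). Levels of Zfhx3 and Zfhx4 are therefore, for the most part, levels of 1 exon.

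**Figure D4:**
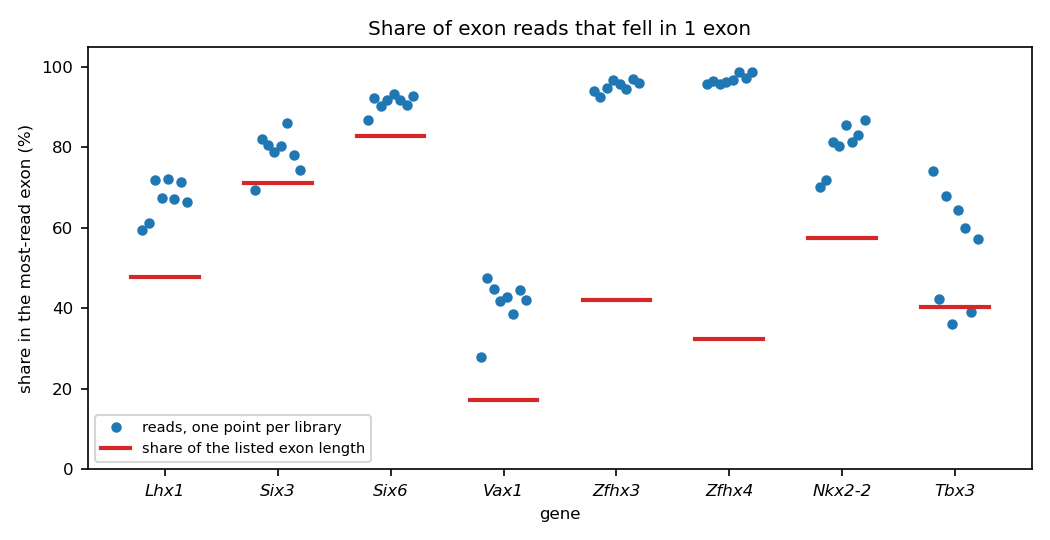
Share of exon reads that fell in the most-read exon of each gene (circles, 1 per library, in percent) and share of the listed exon length that this exon takes up (horizontal lines). In Zfhx3 and Zfhx4 the circles lie at 92.7% or above while the lines lie at 42.0% and 32.3%.

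Other transcripts overlap or adjoin most of these genes, and how reads in an overlap were assigned is not given in the sources used here. Sense and antisense reads were deposited apart, but the share counted on the wrong strand is not known, so reads in the overlaps are uncertain. Six3os1 (85999788-86017770) shares 4833 bases with Six3 and was read at 54.6 CPM on average. Its levels were 51.9 and 75.2 CPM at CT22, 47.9 and 67.2 at CT4, 46.7 and 48.0 at CT10, and 53.5 and 46.2 at CT16. Like Six3 it was highest in CT22 replicate 2 and second in CT4 replicate 2 (edgeR adjusted p = 0.595 for the 24-h rhythm). 4930447C04Rik, on the minus strand, shares 970 bases with the start of Six6. It was read at 49.0 and 83.2 CPM at CT22, 70.0 and 95 at CT4, 64.7 and 62.2 at CT10, and 75.9 and 64 at CT16. Unlike Six6 it was lowest in CT22 replicate 1 and highest in CT4 replicate 2. 1500016L03Rik, named Lhx1os in the reference table, lies 89 bases from Lhx1 on the other strand and was read at 2.87 to 5.63 CPM, with its highest value in CT22 replicate 2. Nkx2-2as and 2700069I18Rik, which overlap Nkx2-2 and Zfhx4, averaged 0.99 and 0.82 CPM. Gm2301 and Gm16065 beside Tbx3 and 6430503K07Rik within Nkx2-2 averaged at most 0.145 CPM.

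**Figure D5:**
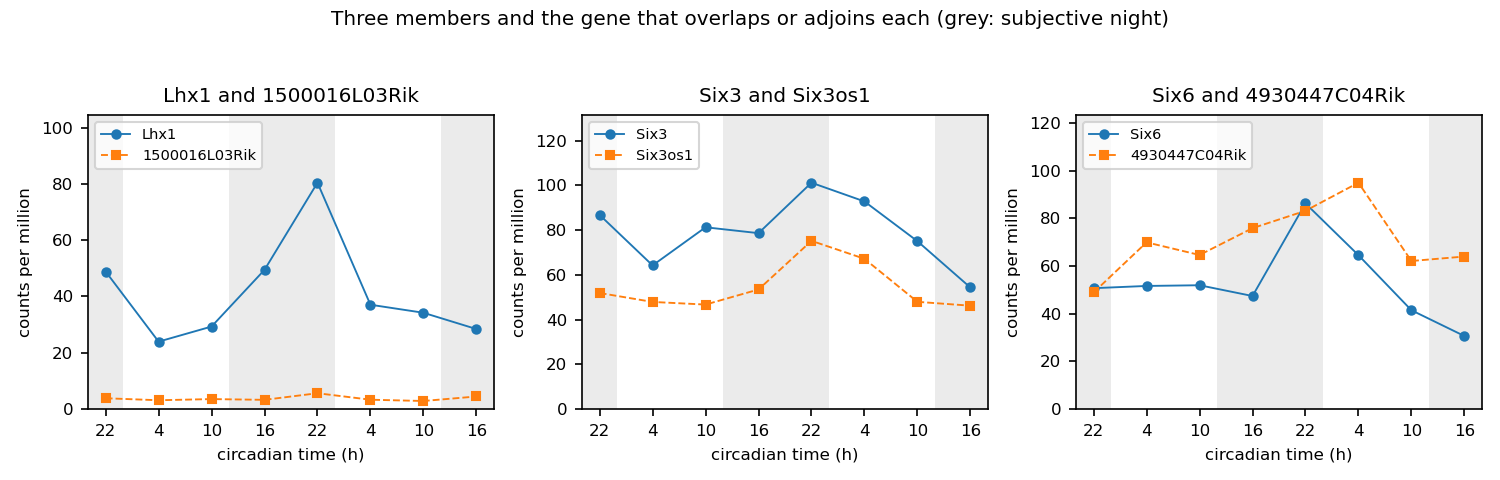
Levels in CPM (vertical axes from 0) of Lhx1, Six3 and Six6 (circles, solid lines) and of the gene next to or overlapping each (squares, dashed lines) in the 8 libraries in order of collection; grey marks the subjective night. Six3 and Six3os1 both have their highest point at CT22 of the second cycle, whereas Six6 has its highest there and 4930447C04Rik at the following CT4.

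On the strand opposite to their exons, the 8 genes had 8 to 49 reads each over all libraries, and no single library held more than 14 for any gene. None of the 8 reached the minimum of 10 reads in 2 libraries, so 0 of the 8 were tested for a rhythm. Among the 3693 opposite-strand genes that were, 0% were called by edgeR and 3.47% had an unadjusted p under 0.05. No direction is given for these rows.

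Partner and family genes, taken from lists made by name, were compared by counts. The LIM cofactor list (LDB, LMO and SSBP proteins and Rlim, through which LIM-homeodomain factors such as LHX1 act) had 10 of 10 genes tested. None was called in any of the 5 gene tests and none had an unadjusted p under 0.05 in the 24-h test. Its lowest p was that of Ldb1, the bridging cofactor, with a log2 peak-to-trough ratio of 0.34 ± 0.13 (SE, edgeR adjusted p = 0.593), then Lmo2 (0.49 ± 0.23) and Ssbp4 (0.54 ± 0.33). The summed level of the list stayed between 546 and 633 CPM.

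Among partners of SIX3 and SIX6 (EYA coactivators, DACH proteins and Groucho corepressors), 11 of 11 genes were tested, 0 were called and 1 had an unadjusted p under 0.05. It was Tle4, a Groucho corepressor, with a log2 ratio of 0.46 ± 0.14 (SE, edgeR adjusted p = 0.455) and a peak at CT21.9. Tle4 was read at 115 and 151 CPM at CT22 and at 88.3 and 104 at CT10, again with CT22 replicate 2 highest. Dach2 (0.98 ± 0.40) and Tle1 (0.41 ± 0.21) came next.

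Of 35 family relatives (other LIM-homeodomain, Zfhx, Vax, T-box and Nkx genes and those related to Six3), 31 were in the table and 20 were tested. None was called and none had an unadjusted p under 0.05. Their summed level was 108 to 195 CPM, lowest in CT22 replicate 2, the library in which 5 of the 8 factors were highest. Tbx1 (log2 ratio 1.74 ± 0.69, SE), Six5 (0.91 ± 0.39) and Isl1 (0.55 ± 0.26) had the lowest p (edgeR adjusted p = 0.595, 0.663 and 0.668).

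Other hypothalamic transcription factors numbered 37, of which 31 were tested, 0 were called and 5 had an unadjusted p under 0.05. They were led by Rora (log2 ratio 1.05 ± 0.18, SE, peak at CT4.83, edgeR adjusted p = 0.0860), Sox2 (0.67 ± 0.13, CT20.3, 0.128) and Rorb (0.76 ± 0.16, CT1.46, 0.203). Rora and Rorb encode nuclear receptors that bind the ROR half-site, and Sox2 a factor of neural progenitors and of SCN neurons. Their fitted day-night changes had opposite signs, -0.44 in Sox2 and 0.62 in Rora.

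SCN neuropeptides and their receptors had 12 of 13 genes tested, of which 1, Vipr2, was called for the 24-h rhythm and for day-night, and 7 had an unadjusted p under 0.05 in the 24-h test. Vipr2 encodes the receptor through which VIP reaches other SCN neurons. It had a log2 ratio of 1.45 ± 0.21 (SE, edgeR adjusted p = 0.0157) with a fitted peak at CT20.9 ± 0.54 h (SE). The fit of Lhx1, which was not called, peaked at CT20.8 ± 1.04 h. Vipr2 was followed by Prokr2 (1.03 ± 0.20, CT21.6), Avpr1a (1.55 ± 0.30, CT19.2) and Nms (1.03 ± 0.24, CT0.69), with adjusted p of 0.12, 0.134 and 0.287. The difference in phase from Lhx1 was not tested. The median dusk-dawn change was -0.47 in this list, -0.25 in the 8 factors, -0.07 both in the family relatives and in the other hypothalamic factors, 0.04 in the LIM cofactors and 0.15 in the partners of SIX3 and SIX6.

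The genes most like each factor over the 8 libraries were found by Pearson's r of log2 CPM, among 11900 genes with at least 5 CPM (11901 for Tbx3 and Nkx2-2). Being the highest of so many from 8 shared libraries, these values describe and do not test. For Lhx1 they were C130074G19Rik (r = 0.98), Ednra, an endothelin receptor gene (0.96), and Mex3c (0.95). C130074G19Rik was read at 29.2 and 37.1 CPM at CT22 and at 19.4 and 22.6 at CT4. Gm16990 (0.97), Cdc40 (0.96) and Cd274 (0.96) were most like Six3, and Pcdh9, Mccc1 and Clcn4-2 (each 0.97) most like Six6. Zfhx3 was followed by Cpeb4, Zbtb41 and Ankrd57 (each 0.97), and Zfhx4 by A230046K03Rik (0.97), Edem3 (0.96) and Lrrtm2 (0.96). Vax1 was followed by Cdc14a (0.97), Itgb8 (0.95) and Krcc1 (0.95), Tbx3 by Leprel4 (0.97), Arl2bp (0.95) and 2700060E02Rik (0.94), and Nkx2-2 by Chst8 (0.95), Zfyve1 (0.95) and Fzd1 (0.94). No gene appeared in more than 1 of these lists, and none of the 8 factors was in the list of another.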

How the data were processed

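Libraries of polyadenylated SCN RNA kept the strand of the transcript, per the labels' protocols. The submitters' processing notes name STAR 2.3.0e as the aligner and mm9 as the genome build. What was deposited are whole read counts for genes, introns, exons and junctions. Genes, introns and exons were deposited as separate sense and antisense tables. The counting program, its treatment of overlaps and how depth was made equal within a table are, in the sources used here, not given. A JTK test of the authors supplies, per the file headers, a p-value after adjustment, a q-value and a peak time for each row. No column was left without a sample. Groups are circadian times from the titles, and the replicate number, which the labels do not give, stands for the first or second cycle of collection.

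Counts were fitted with edgeR 4.0.16 in R 4.3.3 (quasi-likelihood F test, legacy dispersion, TMM, at least 10 reads in at least 2 libraries, Benjamini-Hochberg at 0.05 over the whole table). The day-night and dusk-dawn terms together form the 24-h test. Biological variation (edgeR's common coefficient) came to 0.143 in the gene table, 0.194 in introns per gene, 0.346 in junctions and 0.431 in opposite-strand genes. Intron counts were summed over introns of 1 symbol, and opposite-strand, intron and junction counts used the library sizes of the sense genes. Exon shares come from the deposited exon counts, longest rows first so that kept rows did not overlap. Alternatives were DESeq2 1.42.0, RLE size factors, no scaling, no filter, the oligodendrocyte score or the cycle as a term, scaling within a table, and leaving out each library. The edgeR version 4 dispersion and the exon-free introns were added after the data were seen. The fit was tested on simulated data with day-night changes larger than that of any of the 8 factors. That test does not cover changes as small as theirs. Strands came from GENCODE M21 by gene ID. The named genes are the 8 factors, called genes of the lists with up to 3 others of lowest p, the 3 most alike genes per factor, and genes that overlap or adjoin a factor. The 8 genes, the lists and the tests were chosen with earlier results of these data known.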

Additional observations from a re-analysis of the deposited data

Results flagged for a closer look

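Introns of the factors held reads on the strand opposite to the gene in a table that no comparison above used. These rows are given because each exceeded 3 reads, the limit that a count of 0 allows, in every library. In the Six3 intron at 86013054-86020571 (mm9 chromosome 17), 1664 opposite-strand reads were counted over the 8 libraries, 144 to 274 per library. Six3os1 overlaps this intron from its start to 86017770. The next Six3 intron, 86021389-86023066, held 124, or 4 to 32 per library. In the Nkx2-2 intron at 147012192-147019790 (chromosome 2), inside Nkx2-2as, there were 141, or 9 to 28 per library. In the Zfhx4 intron at 5218928-5241669 (chromosome 3), whose start 2700069I18Rik overlaps, there were 116, or 7 to 21 per library. On the sense strand the same introns held, in this order, 1090, 525, 114 and 20 reads. Depth was made equal within each table, so the strands were not compared further. No control library exists for these rows, and the share of reads counted on the wrong strand is not known.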

How the results depend on the processing

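The labels number no replicates, but by the titles all replicate 1 libraries belong to the first cycle and all replicate 2 libraries to the second. With the cycle as a block in the fit, no factor was called, and 21 genes in all were called for the 24-h rhythm, 17 for day-night and 6 for dusk-dawn.

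No factor passed a test under any alternative except the fit without a low-count filter, which called 3 for the 24-h rhythm, 1 for day-night and 2 for dusk-dawn. The cause was not tested. Counts over all genes moved more. For the 24-h rhythm they were 100 by DESeq2, 362 without the filter and 7 to 43 when 1 library was left out. For day-night they were 60, 137 and 4 to 28, and 34 when the oligodendrocyte score was added. For dusk-dawn they were 39, 239 and 3 to 60. The 12-h term gave 19, 169 and 0 to 33. The second cycle against the first gave 2 without the filter, 1 with the oligodendrocyte score and 0 to 2 in the leave-outs. For introns per gene the count was 171 without the filter and 12 to 56 in the leave-outs. For junctions it was 238, 0 to 64 and, with TMM within the table, 7. For opposite-strand genes it was 3, 0 to 1 and 1.

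Of 713 single values recomputed, 672 kept their direction and side of the threshold, 6 passed it without the filter, and 35 reversed, none of them called. With the oligodendrocyte score as a term, the dusk-dawn change was -0.25 in Tbx3 and 0.039 in Zfhx4, and the cycle change was -0.0058 in Six6 and -0.053 in Six3. With the cycle as a term, the dusk-dawn change of Tbx3 was -0.016. By the version 4 dispersion, the day-night change of Six6 was -0.00364. All other reversals came from leaving out 1 library. Over the leave-outs, the day-night change ran from -0.15 to 0.23 in Six6, from -0.53 to 0.015 in Nkx2-2 and from -0.16 to 0.13 in Six3. The dusk-dawn change ran from -0.63 to 0.29 in Tbx3 and from -0.084 to 0.082 in Zfhx4. The 12-h term ran from -0.087 to 0.15 in Vax1 and from -0.93 to 0.072 in Tbx3. The cycle change ran from -0.038 to 0.54 in Lhx1, from -0.20 to 0.26 in Six6 and from -0.16 to 0.22 in Six3. The log2 peak-to-trough ratio of Vax1 introns ran from 0.061 to 0.43 and that of Tbx3 from 0.80 to 1.34. With 2 pooled libraries per time and 17 to 75 reads per library for Tbx3 and Nkx2-2, small differences in these were not detectable.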
